A study of Mus musculus with 6 samples.

Results

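Long intergenic non-coding RNA (lincRNA) genes are transcribed by RNA polymerase II but are not annotated with a protein product. The promoters of all autosomal genes of this class in the GENCODE M1 annotation of the mouse genome (mm9) were described here in pre-B cells, and a gene counted as a member when the annotation gave it the type lincRNA. Of 1273 such genes, 41 lie on X or Y and 1232 are autosomal, out of 34653 autosomal genes of every type. The members have 1927 annotated transcript starts, and 898 of them have a single start. Around each start a window of 1 kb to either side was set, and a member was counted as holding a peak when at least 1 bp of the peak fell in the window of any of its starts. The members were split by position: 658 (53.4%) have a start within 2 kb of the start of a protein-coding transcript and are called near, and 574 do not and are called away.

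The cells were pre-B cells from the bone marrow of C57BL/6 mice (RAG-/- µ+), which lack RAG and carry an IgM transgene that is already rearranged, so that the cells stop before they rearrange their light chain genes. The mice were 6 to 14 weeks old and of both sexes. H3K27ac, H3K4me3 and Pax5 were each profiled by ChIP-seq in 1 library, and 3 input samples were sequenced beside them and are not used here. As there is 1 library per list, no comparison below has a replicate check, and no test was made.

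H3K4me3 is a histone mark laid down at the starts of active or poised genes, most of all where the DNA is rich in CpG dinucleotides. H3K27ac marks active promoters and also active enhancers, many of which lack H3K4me3. Pax5 is the transcription factor that commits cells to the B lineage, and it binds both promoters and enhancers. Several lincRNA genes act as hosts, which means that small nucleolar RNAs (snoRNAs) or microRNAs (miRNAs) are cut out of their transcripts.

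The H3K27ac list holds 69345 peaks with scores from 3.06 to 330.0 and a median of 8.52. The Pax5 list holds 15445 peaks with scores from 87.9 to 3214 and a median of 207. The score is the number the peak caller gave each peak, its scale is not named in the list, and it was compared only within a list. For H3K4me3 the file gives 782636 bins, each 25 bp wide and unscored, which make 23237 regions when touching bins are joined. No list gives read counts, so sequencing depth cannot be stated. The label of the cells was checked at 9 genes of the B lineage, of which all 9 held H3K27ac and Pax5 and 8 held H3K4me3. Of 4 T cell genes only Lat held any peak, and none of the liver, muscle and neuron genes Alb, Myod1 and Neurod1 did. The myeloid genes Itgam, Lyz2, Csf1r and Mpo all held H3K27ac, 3 of the 4 held H3K4me3 and none held Pax5. Of 3 erythroid genes, 2 held H3K27ac and 1 held H3K4me3. The part of other cells in the values below was not tested.

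The sequences of 7 away promoters are shown, each picked for a high score or many covered bases within its combination of lists. None comes from the 357 away members with no list. Each run covers 250 bases before and 50 bases from the first start of the gene, 5′ to 3′ on the strand of the gene, read from the NCBIM37 (mm9) genome, with every CpG in capitals. The first 4 are the away members with peaks from all 3 lists and the highest Pax5 scores. They lie at chr17:7032290-7032589 (Gm2885), chr6:129187951-129188250 (2310001H17Rik), chr1:7387833-7388132 (Gm16899) and chr3:87981658-87981957 (1700113A16Rik), all on the minus strand.
Gm2885: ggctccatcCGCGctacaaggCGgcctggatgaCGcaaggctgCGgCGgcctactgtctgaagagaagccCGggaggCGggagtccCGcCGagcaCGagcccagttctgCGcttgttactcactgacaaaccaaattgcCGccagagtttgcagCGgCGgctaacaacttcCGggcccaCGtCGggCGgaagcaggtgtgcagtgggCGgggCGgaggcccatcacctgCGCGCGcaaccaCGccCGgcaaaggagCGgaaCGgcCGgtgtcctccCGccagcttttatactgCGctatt
2310001H17Rik: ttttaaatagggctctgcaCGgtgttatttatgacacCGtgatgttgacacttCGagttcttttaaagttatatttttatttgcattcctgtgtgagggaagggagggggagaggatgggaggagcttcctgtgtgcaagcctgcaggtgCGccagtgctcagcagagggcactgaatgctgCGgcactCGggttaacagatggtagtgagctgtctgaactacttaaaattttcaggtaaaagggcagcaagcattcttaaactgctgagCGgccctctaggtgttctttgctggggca
Gm16899: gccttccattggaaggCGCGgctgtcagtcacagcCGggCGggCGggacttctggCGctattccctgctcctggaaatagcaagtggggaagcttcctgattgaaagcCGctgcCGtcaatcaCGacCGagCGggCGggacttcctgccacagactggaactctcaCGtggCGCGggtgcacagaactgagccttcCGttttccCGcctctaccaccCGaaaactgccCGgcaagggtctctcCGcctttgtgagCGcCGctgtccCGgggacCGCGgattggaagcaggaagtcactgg
1700113A16Rik: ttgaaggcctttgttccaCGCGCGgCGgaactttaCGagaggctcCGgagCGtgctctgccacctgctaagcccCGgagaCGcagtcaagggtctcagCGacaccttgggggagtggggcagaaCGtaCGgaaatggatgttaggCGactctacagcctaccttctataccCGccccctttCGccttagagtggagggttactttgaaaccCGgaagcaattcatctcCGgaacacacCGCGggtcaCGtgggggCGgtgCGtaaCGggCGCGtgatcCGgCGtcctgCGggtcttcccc

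The next runs, chosen after their values were seen, belong to the 2 away members with the highest H3K27ac scores among those without H3K4me3. They lie at chr10:80144333-80144632 on the plus strand (Gm17306) and chr5:120589223-120589522 on the minus strand (Gm10390).
Gm17306: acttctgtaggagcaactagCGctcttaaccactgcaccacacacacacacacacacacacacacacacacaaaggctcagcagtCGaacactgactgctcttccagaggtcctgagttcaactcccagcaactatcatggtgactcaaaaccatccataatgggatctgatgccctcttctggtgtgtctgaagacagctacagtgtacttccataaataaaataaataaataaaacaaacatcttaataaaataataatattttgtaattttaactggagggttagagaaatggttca
Gm10390: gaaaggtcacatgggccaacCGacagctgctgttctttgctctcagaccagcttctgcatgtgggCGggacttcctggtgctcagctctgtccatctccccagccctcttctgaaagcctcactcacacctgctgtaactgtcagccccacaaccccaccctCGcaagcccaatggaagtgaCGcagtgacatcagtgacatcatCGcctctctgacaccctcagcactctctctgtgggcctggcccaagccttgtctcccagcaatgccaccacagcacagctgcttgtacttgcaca

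The last run, chosen in the same way, is the away member with the most bases of H3K4me3 and no H3K27ac. It lies at chr11:68936042-68936341 on the minus strand (9130213A22Rik).
9130213A22Rik: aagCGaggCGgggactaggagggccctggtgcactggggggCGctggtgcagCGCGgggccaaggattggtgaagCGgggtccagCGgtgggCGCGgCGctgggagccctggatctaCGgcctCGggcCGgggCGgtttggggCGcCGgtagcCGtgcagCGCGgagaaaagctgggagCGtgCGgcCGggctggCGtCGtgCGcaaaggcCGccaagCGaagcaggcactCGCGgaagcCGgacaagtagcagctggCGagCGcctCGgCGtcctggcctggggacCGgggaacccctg

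The capitals differ between the runs. Gm2885 holds 31 CpG in 300 bases, Gm16899 holds 25, 1700113A16Rik holds 28 and 9130213A22Rik holds 35. 2310001H17Rik, which also has all 3 lists, holds only 7. Gm17306 holds 2 and Gm10390 holds 5, and the run of Gm17306 includes a long CA repeat.

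LincRNA promoters taken as 1 class held each list somewhat less often than promoters of protein-coding genes and more often than all genes. Of the 1232 members, 595 (48.3%) held H3K27ac, 642 (52.1%) held H3K4me3 and 437 (35.5%) held Pax5. Over all 34653 autosomal genes, counted with the same window, the shares were 36.5%, 37.6% and 27.3%, and over the 21418 protein-coding genes they were 49.8%, 53.6% and 39.0%. All 3 lists were found at 377 members (30.6%), beside 24.6% of all autosomal genes and 35.7% of protein-coding genes, and 513 members (41.6%) had none. In a gene with several starts the 3 lists may lie at different starts. With only the most 5′ start of each gene, 298 near and 71 away members held all 3. Protein-coding genes have a median of 2 starts each and the members a median of 1, so a coding gene had more windows in which a peak could fall.

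The class was not uniform. Near members held H3K27ac in 418 cases (63.5%), H3K4me3 in 490 (74.5%) and Pax5 in 337 (51.2%), and 304 (46.2%) had all 3. Away members held H3K27ac in 177 cases (30.8%), H3K4me3 in 152 (26.5%) and Pax5 in 100 (17.4%), and 73 (12.7%) had all 3. No list covered 156 near members (23.7%) and 357 away members (62.2%). The near shares were thus above those of protein-coding genes and the away shares were below them.

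Windows away from coding starts rarely held a peak anywhere in the genome. When the autosomes were cut into tiles of the window's length and the 1142268 tiles whose centre lies over 2 kb from a coding start were counted, 4.03% held H3K27ac, 0.627% held H3K4me3, 0.927% held Pax5 and 0.211% held all 3. Every away share was above these values, although a tile is a single window and a gene may have several. With only the most 5′ start of each gene, the away shares were 29.8% for H3K27ac, 26.0% for H3K4me3 and 16.6% for Pax5. The annotation has another non-coding class, the processed transcripts, which can be counted in the same way. Near a coding start, 48.3% of 520 such genes held H3K27ac, 53.3% held H3K4me3 and 35.6% held Pax5. Away from coding starts, 14.7% of 1917 held H3K27ac, 6.68% held H3K4me3 and 5.37% held Pax5, and for pseudogenes, with no split, the shares were 5.43%, 2.96% and 2.39%.

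**Figure D1:**
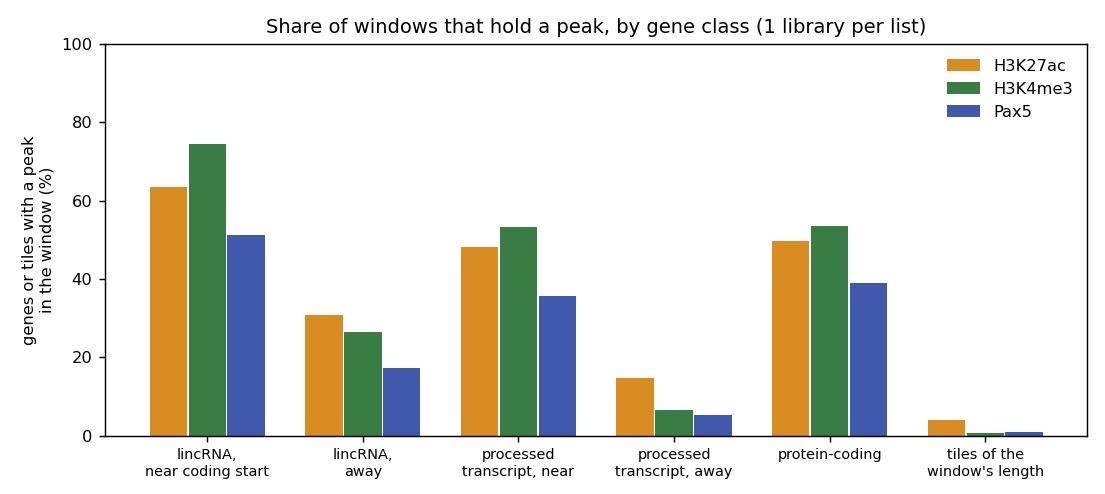
Bars give the share of genes (or of tiles of the window's length away from coding starts, right) whose window holds a peak, in percent, for the H3K27ac (orange), H3K4me3 (green) and Pax5 (blue) lists, each from 1 library and so without error bars. Near lincRNA genes stand highest for each list (63.5%, 74.5% and 51.2%), and away lincRNA genes (30.8%, 26.5% and 17.4%) stand between away processed transcripts and protein-coding genes.

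The name lincRNA means intergenic, and the annotation went against it for many members. A protein-coding gene body overlapped 736 members, on the opposite strand only in 685 of them, and 292 of the 736 were away members. Away members that overlapped a coding gene body held H3K27ac in 25.0%, H3K4me3 in 15.8% and Pax5 in 12.3% of 292 cases. Away members free of such overlap held them in 36.9%, 37.6% and 22.7% of 282 cases. ChIP-seq has no strand, so a peak at an overlapped start cannot be given to the lincRNA or to the coding gene. Some members also carry the symbol of a protein-coding gene and were kept because the annotation types the gene as lincRNA. Among them are the away members Ttc28, Ppp1r3e, Fam150a, Atp10d, Abhd1, Tdrd5 and Nlrc5, chosen after their values were seen. Atp10d and Abhd1 held all 3 lists and count among the away members with all 3, and Fam150a held none.

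Near promoters were mostly pairs of starts that share their chromatin. The closest coding start lay at a median distance of 213 bp. A pair was called head-to-head when the 2 genes are transcribed away from each other, and 395 near members were of this kind, of which 69.9% held H3K27ac, 79.2% held H3K4me3 and 58.2% held Pax5. In 261 pairs the strands are opposite and the 5′ ends run into each other, and there the shares were 53.6%, 67.0% and 40.2%. Only 2 pairs were on the same strand, and both members had all 3 lists.

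Among the 490 near members within 500 bp of the coding start, 68.0% held H3K27ac, 79.2% held H3K4me3 and 55.7% held Pax5. Beyond 500 and up to 1000 bp the shares were 54.1%, 68.4% and 43.9% of 98, and beyond that, up to 2000 bp, they were 45.7%, 50% and 30.0% of 70. For each list the share fell with the distance. No such order was seen among away members, where H3K27ac was held by 31.0% of 174 genes up to 10 kb from a coding start, 30.0% of 240 up to 50 kb, 33.8% of 139 up to 200 kb and 19% of 21 beyond.

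The coding partner of a near member nearly always had the same lists. H3K27ac was found in the windows of both genes in 413 pairs, at the lincRNA gene alone in 5, at the coding gene alone in 30 and at neither in 210. For H3K4me3 the counts were 487, 3, 36 and 132, and for Pax5 they were 333, 4, 43 and 278. In 411, 485 and 333 of the pairs with a list at both, a single peak or region reached both windows. Starts within 2 kb of each other have windows that overlap, so these counts describe shared peaks and not 2 separate events.

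The 9 near members that held a list their coding partner lacked were looked up after their values were seen. Gm10575, 166 bp from a start of Efcab4a, held all 3 lists, while Efcab4a held none. The H3K27ac score of Gm10575 was 47.1, its Pax5 score was 136, and 1275 bp of a window carried H3K4me3. Windows 166 bp apart share most of their bases, so these peaks lie at another of the 3 starts of Gm10575. Mir1900, 319 bp from a start of the adhesion molecule gene Icam5, held 1401 bp of H3K4me3 and a Pax5 peak of score 359 without H3K27ac. Mir1900 has 1 start, so at most 319 bp of its window lay outside that of Icam5. The H3K4me3 thus reached both windows, and the list that Icam5 lacked was Pax5. Gm13261, 1459 bp from a start of Sfmbt2, which encodes a Polycomb protein, held 1656 bp of H3K4me3 and a Pax5 peak of score 213. Here too the H3K4me3 was too long to miss the partner's window, and the list that Sfmbt2 lacked was Pax5. Among the other 6 members, BC028777 and 4732463B04Rik held no H3K27ac, and the highest H3K27ac score was 20.9, at Gm10516.

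From the coding side, 659 protein-coding genes had a lincRNA start within 2 kb. Of these, 67.7% held H3K27ac, 79.7% held H3K4me3 and 57.4% held Pax5. Of the 20759 coding genes without such a neighbour, 49.2%, 52.8% and 38.4% did. Coding genes beside a lincRNA start have a median of 3 starts and the others a median of 2.

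Away members and their nearest coding genes were marked together less often. H3K27ac was present at both in 123 cases, at the lincRNA gene alone in 54, at the coding gene alone in 206 and at neither in 191. For H3K4me3 the counts were 107, 45, 265 and 157, and for Pax5 they were 51, 49, 209 and 265. At most 5 of these pairs shared a peak in any list. An away member held H3K27ac in 37.4% of 329 cases where the nearest coding gene held it and in 22.0% of 245 cases where it did not. For Pax5 the shares were 19.6% of 260 and 15.6% of 314. Some away starts also lie beside genes of other non-coding types or pseudogenes. The 49 within 2 kb of such a start held H3K27ac in 57.1%, H3K4me3 in 59.2% and Pax5 in 44.9% of cases, and the 525 others in 28.4%, 23.4% and 14.9%.

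The share of members covered by a peak was higher around the first start than at 5 kb from it. At the first start itself H3K4me3 covered 63.1% of near and 20.7% of away members, and at 5 kb before it 1.22% and 2.61%. Pax5 covered at most 42.1% of near members, 100 bp after the start, and at most 12.9% of away members, at the start. H3K27ac showed a dip at near members, with 34.7% at 500 bp before the start, 28.1% at 100 bp before it, 32.8% at the start and a highest value of 45.0% at 300 bp after it. Protein-coding genes showed a dip too, with 28.0% at 500 bp before the start, 21.3% at the start and 32.0% at 500 bp after it. For away members the H3K27ac values were 16.9% at the start and at most 20.6%, at 200 bp after it. At near members H3K27ac was thus found more often to the sides of the start than on it.

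**Figure D2:**
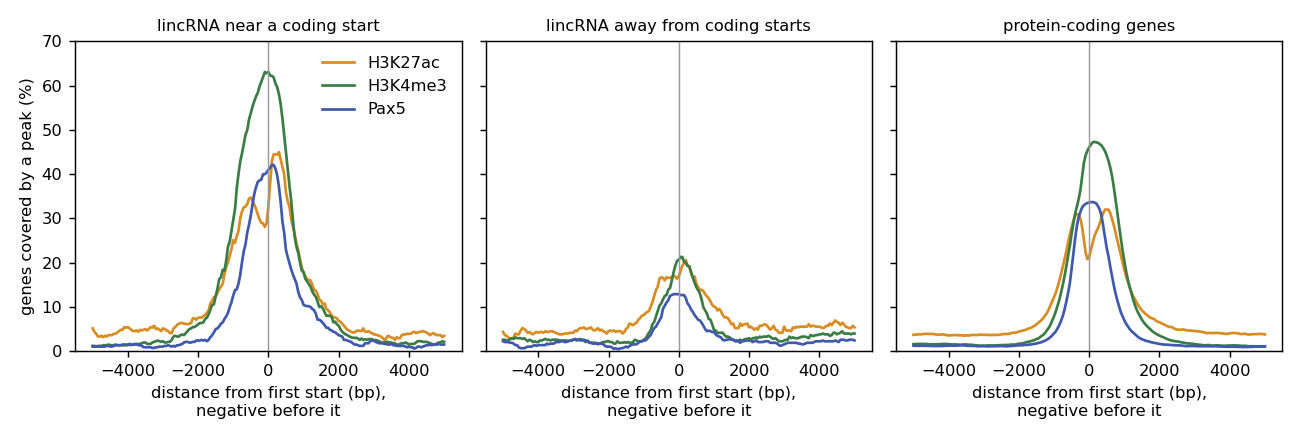
Lines give the share of genes covered by a peak, in percent, at each distance from the first start in bp along the direction of transcription, for near lincRNA (left), away lincRNA (middle) and protein-coding genes (right), 1 library per list. H3K4me3 (green) reaches 63.1% of near and 21.3% of away members, and H3K27ac (orange) dips close to the start of near lincRNA and protein-coding genes.

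The H3K4me3 regions of near and away members also differed in width. The widest region in the windows of a gene had a median width of 1450 bp at near members, as at protein-coding genes, and 987 bp at away members. A gene with more starts has more windows from which the widest region can come. The closest midpoint of any of these regions lay within 250 bp of a start in 45.9% of near, 64.5% of away and 69.9% of protein-coding genes. For Pax5 peaks this was 52.5%, 59.0% and 77.9%.

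The 3 lists came in a few combinations. Of the 418 near members with H3K27ac, 98.1% also held H3K4me3, and so did 68.4% of the 177 away members with H3K27ac. H3K27ac without H3K4me3 was found at 8 near (4.76% of the 168 without H3K4me3) and 56 away members (13.3% of 422). Among 21418 protein-coding genes this combination was found at 705. H3K4me3 without H3K27ac was found at 80 near (33.3% of the 240 without H3K27ac) and 31 away members (7.81% of 397). Among protein-coding genes this was found at 1526. Pax5 was seldom alone, at 4 near (0.608%) and 9 away members (1.57%), and no count over other genes is given here. Of the 100 away members with Pax5, 84 held H3K27ac and 80 held H3K4me3. Among away members Pax5 was found at 47.5% of those with H3K27ac and at 4.03% of those without it. Over all promoters the lists overlap in the same genes too, since 8535 of the 9473 autosomal genes with Pax5 held the other lists as well.

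Peak scores were lower at away members for H3K27ac and closer together for Pax5. The median of the highest H3K27ac score per member was 33.9 at near members (4.24 to 254), 16.9 at away members (3.57 to 165) and 32.7 at protein-coding genes. Scores above the median of the whole list, 8.52, were found at 94.7% of near and 78.0% of away members with H3K27ac. For Pax5 the medians were 287 near (89.3 to 2030), 247 away (90.4 to 1590) and 272 at protein-coding genes, and 65.9% and 58.0% were above the list's median of 207. The lists went together in score as well. Away members had a median H3K27ac score of 26.0 with H3K4me3 and 9.03 without it, and of 30.7 with Pax5 and 11.4 without it. Near members with H3K27ac had a median of 39.8 with Pax5 and 22.8 without it.

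**Figure D3:**
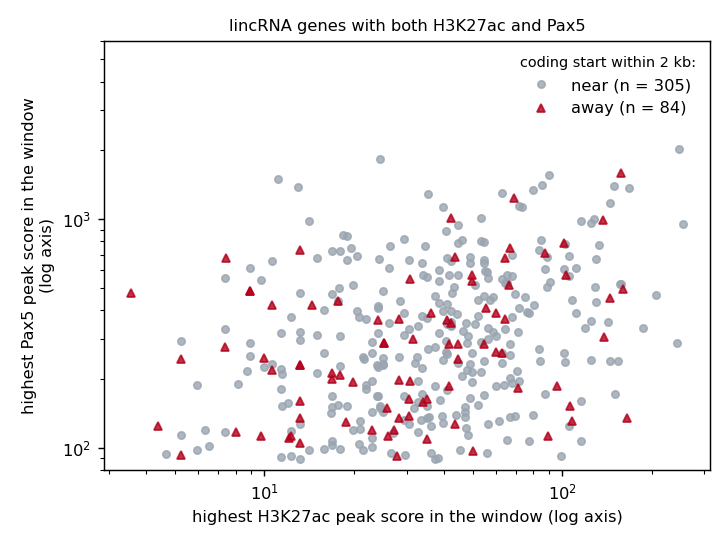
Each point is a lincRNA gene with both H3K27ac and Pax5, placed by its highest H3K27ac peak score (x, log axis) and its highest Pax5 peak score (y, log axis), with 305 near members in grey and 84 away members in red. Near and away members overlap over most of the range, and the highest scores of both lists (254 and 2030) belong to near members.

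CpG content differed between the combinations among away members. The CpG ratio, the number of CpG observed over the number expected from the C and G content, was computed over 500 bp to either side of the first start. Its median was 0.690 at near, 0.309 at away and 0.559 at protein-coding promoters. Away members with all 3 lists had a median of 0.670, and those with H3K4me3 and no H3K27ac had 0.616. Away members with H3K27ac and no H3K4me3 had a median of 0.225, which was below the 0.260 of members with no list. At protein-coding promoters the medians were 0.768 for all 3 lists, 0.728 for H3K4me3 without H3K27ac, 0.231 for H3K27ac without H3K4me3 and 0.229 for none. In the 300 bases around the start, the window of the printed runs, away members with all 3 lists had a median of 20 CpG and those with H3K27ac without H3K4me3 had 4. Among the runs, 2310001H17Rik with 7 CpG and all 3 lists lay below the lower quartile of its group, 10.

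Taken by CpG ratio, the away shares were highest at the rich end, and there they were below those of coding promoters. Of the 102 away members with a ratio of at least 0.6, 58.8% held H3K27ac, 74.5% held H3K4me3 and 52.9% held Pax5, beside 76.4%, 87.4% and 67.6% of coding genes in that range. Of the 136 below 0.2, 19.1%, 2.94% and 3.68% did, beside 13.1%, 7.73% and 4.78% of coding genes. Between them, at 0.2 to 0.4 and 0.4 to 0.6, H3K4me3 was found at 11.1% and 42.7% of away members. Near members held H3K4me3 in 42.1% of the 19 below 0.2 and in 84.8% of the 429 from 0.6. CpG richness and nearness to a coding start go together, and the part of each in the shares was not tested.

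**Figure D4:**
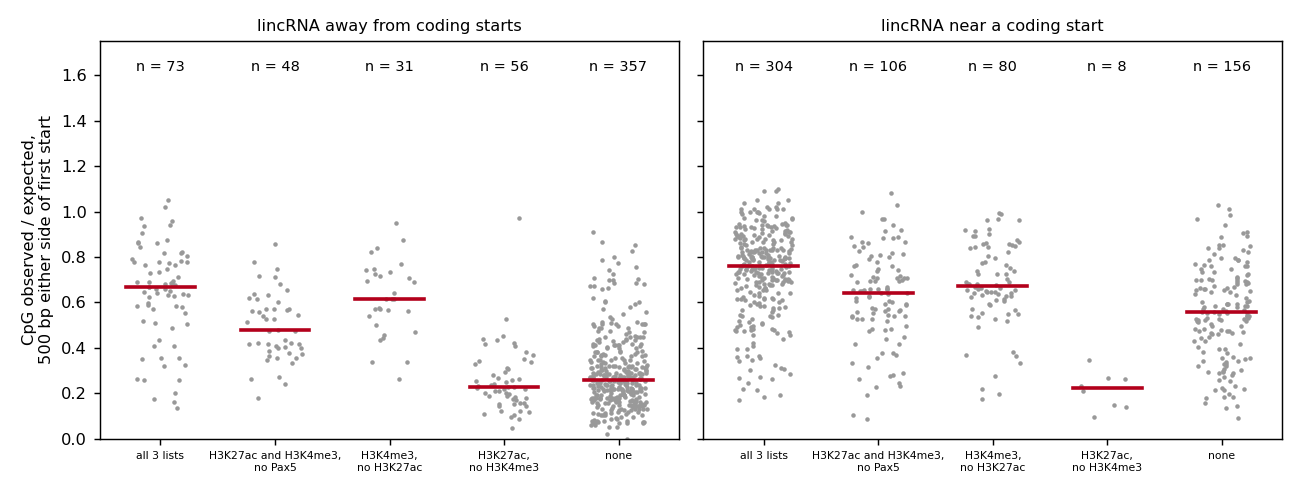
Each point is a lincRNA gene, placed by its CpG ratio (observed over expected, 500 bp to either side of the first start) and by which lists its windows hold, for away (left) and near (right) members, with red lines at the medians. The 9 away and 4 near members with Pax5 alone are not drawn. Away members with H3K27ac and no H3K4me3 (median 0.225) lie with those that hold no list (0.260), under those with all 3 lists (0.670).

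The letters of the Pax5 core were not frequent around the first start of lincRNA genes with Pax5. The forms GCGTGAC and GCATGAC were searched on both strands of the sequence around the first start only. The length of that sequence is not stated here. A Pax5 peak was counted at any start of a gene, so its sequence may lie outside the search. Of the 100 away members with Pax5, 38 have 2 or more starts. The forms differ by 1 letter, so a stretch can match only 1 of them. Of 25087 lincRNA, coding and processed transcript promoters, 8.38% held GCGTGAC and 12% held GCATGAC. At away members GCGTGAC was found in 9% of the 100 with Pax5 and 4.64% of the 474 without it. At near members the shares were 9.50% and 9.03%, and at protein-coding genes 15.1% and 4.86%. GCATGAC was found at 11% of away members both with and without Pax5. Neither form is in the 7 printed runs, which says only that these letters are not in those 300 bases.

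The away members with the highest scores were named by rule. Gm2885 (chr17:7002739-7032339, minus strand) lies 45.2 kb from the nearest coding start, that of Ezr, which encodes the membrane linker ezrin. Its start lay in an H3K27ac peak of score 157 that spans chr17:7030784-7035131 and covers its whole window. Its Pax5 score of 1590 was the highest of any away member, and 1450 bp of its window carried H3K4me3. It ranked among the highest for both scores, as did 1700113A16Rik (chr3:87975482-87981707, minus strand), 35.2 kb from Mef2d, with an H3K27ac score of 137 and a Pax5 score of 994. Mef2d encodes a transcription factor of the MEF2 family.

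2310001H17Rik (chr6:129158430-129188000, minus strand) lies 37.4 kb from Cd69, the gene of an early activation marker of lymphocytes. Its H3K27ac score was 68.7, its Pax5 score was 1240 and its H3K4me3 covered 1650 bp. It has 3 starts, and the Pax5 peak with that score, chr6:129182614-129185047, lies at another start than the printed one. Gm16899 (chr1:7339487-7387882, minus strand), 231 kb from a start of Pcmtd1, held a Pax5 peak of score 1010 and 1950 bp of H3K4me3 beside an H3K27ac score of 42.2. Strong Pax5 and H3K4me3 were thus seen at starts far from any coding start.

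The highest H3K27ac score of an away member, 165, belonged to Gm13421 (chr2:27395946-27398882), 20.7 kb from Wdr5, the gene of a subunit of the complexes that write H3K4me3, and its Pax5 score was 135. D730003I15Rik (145), D230017M19Rik (138), Gm16575 (129) and 1300002E11Rik (108) were also among the 8 with the highest H3K27ac scores. Of these 8 only Gm16575 held no Pax5 peak, and its H3K4me3 covered 375 bp.

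A430072P03Rik (chr5:108154177-108157821) was covered by all 3 lists over its whole window, 104 kb from the nearest coding start. Its H3K27ac score was 87.6 and its Pax5 score was 715. 4833417C18Rik (chr11:95720179-95722358), 15.3 kb from Gngt2, had 1784 bp of H3K4me3 and a Pax5 score of 747. Gm12409 (chr4:45775249-45777095) had a Pax5 score of 737 but only 147 bp of that peak and 250 bp of H3K4me3 in its window. The peak is centred outside the window.

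Among near members the highest scores were those of Etohd2, 155 bp from Isca1, with an H3K27ac score of 254 and a Pax5 score of 958, and of Gm6410, 97 bp from Gm7461, with 246 and 2030. Gm17408, 10 bp from the start of Mycbp, had a Pax5 score of 1500 with an H3K27ac score of only 11.1. Gm15559, 232 bp from the chromatin remodeller gene Ep400, had 1830 with 24.4. H3K4me3 filled a whole window at Gas5, Gm13476, 2500004C02Rik, 5430405H02Rik, 4930481B07Rik and 1600020E01Rik, of which Gm13476 lies 761 bp from Zeb2, the gene of a transcriptional repressor. Etohd2, Gm6410, Gm17408, Gm15559 and Gas5 held all 3 lists, and so did their coding neighbours.

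Of 46 well-known lincRNA symbols on a list made for this work, 17 were members, and 11 of them held H3K27ac, 11 held H3K4me3 and 7 held Pax5, with 6 holding all 3 and 5 holding none. Over all members the shares were 48.3%, 52.1%, 35.5%, 30.6% and 41.6%. Tug1, a gene transcribed in most tissues that lies 682 bp from Morc2a, held all 3, with an H3K27ac score of 52.2 and a Pax5 score of 443. Dleu2 (chr14:62238318-62301162, minus strand), which lies in a region lost in chronic lymphocytic leukaemia and hosts miRNAs, held an H3K27ac score of 101, a Pax5 score of 786 and H3K4me3 over the whole window of a start. It has 3 starts, and the H3K27ac peak with that score, chr14:62267290-62268556, lies at another start than the Pax5 peak, chr14:62300222-62302328. Its nearest coding gene by start, Kcnrg, 41.3 kb away, held none of the lists.

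The known members with H3K27ac and no Pax5 had H3K27ac scores from 7.40 to 37.4, the highest at Snhg12. Pvt1 (chr15:61869542-62209651), 50.6 kb downstream of the proto-oncogene Myc, had an H3K27ac score of 14.1 and 850 bp of H3K4me3. Airn, the antisense RNA of the imprinted Igf2r gene, had an H3K27ac score of 7.40 and 1088 bp of H3K4me3. Gm14005, known in myeloid cells for a role in their lifespan, had 10.6 and 625 bp. The imprinted RNAs Rian and Mirg held no list, and Meg3 of the same cluster held only a Pax5 peak of score 162, which lies at chr12:110781010-110781458, away from the first of its 10 starts. Sox2ot, Rmst and Miat, which are best known from neural tissue, held none.

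Of the members whose nearest coding start belongs to 1 of 50 genes used in B cells, there were 5, and 3 held a list, beside 58.4% of all members. Gm11999, 397 bp from the lymphoid transcription factor gene Ikzf1, held all 3, with an H3K27ac score of 58.6 and a Pax5 score of 320. Gm16786, 15.9 kb from Myb, held H3K27ac alone with a score of 9.01, and Pvt1 is described above. The promoters of Myb, Ikzf1 and Myc each held all 3 lists.

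Small RNA hosts were looked up after the values of the other members were known. Of 14 away members with a snoRNA in the body, 12 held H3K27ac, 12 held H3K4me3 and 9 held Pax5. Away members with no small RNA in the body held them in 29.4%, 24.0% and 15.8% of 538 cases. Near members did not show this difference. Of 6 near members with a snoRNA in the body, 3 held H3K27ac, 4 held H3K4me3 and 3 held Pax5. The shares were 63.5%, 74.5% and 51.1% of the 646 near members with no small RNA. The counts for the 23 away hosts of a miRNA were 7 (30.4%), 11 (47.8%) and 6 (26.1%). Most snoRNAs guide the chemical modification of ribosomal RNA, and their hosts are known to be transcribed in most growing cells.

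Snhg5 (chr9:88415894-88417721, minus strand), a host of SNORD50, had an H3K27ac score of 49.7, a Pax5 score of 570 and 1855 bp of H3K4me3. 2410006H16Rik (chr11:62416379-62418309), host of Snord49a, Snord49b and Snord65, had 55.5, 409 and 1625 bp. Gm11974 had 64.0, 678 and 1200 bp. Snhg12, Snhg4 and 9430008C03Rik held H3K27ac, with scores of 37.4, 15.0 and 27, and H3K4me3, but no Pax5. The snoRNA hosts with no list among the 14 were Rian and 2900076A07Rik.

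Several hosts on chromosome 9 carry the same kind of snoRNA. 9430037G07Rik and Gm17683 start back to back and share their peaks (H3K27ac score 13.2, Pax5 score 231), and 9330159M07Rik had 25.2 and 288. Each has a SNORD50 in the body, as Snhg5 does. The paper's methods keep reads with up to 3 best positions, but they name another Bowtie version than the notes on these lists. Whether the setting holds here is not known. If it does, reads from copies that are alike can count at more than 1 of them. The part of this in the values was not tested. The shared peaks of 9430037G07Rik and Gm17683 count once for each gene in the counts of hosts.

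The hosts of 2 miRNAs known from neurons held H3K4me3 alone. C130071C03Rik, host of Mir9-2, had 425 bp of it and A930011O12Rik, host of Mir124a-1, had 543 bp, with neither H3K27ac nor Pax5 in any window. Ttc28, with Mir701 in the body, had 1200 bp and 9330111N05Rik had 425 bp. 1700016P03Rik, host of Mir132 and Mir212, had 492 bp of H3K4me3 and a Pax5 peak of score 303. Mir155, whose miRNA is made in activated lymphocytes, held only an H3K27ac peak of score 7.38, below the list's median. A330023F24Rik, host of Mir29b-2 and Mir29c, held all 3 lists, with an H3K27ac score of 8.95, a Pax5 score of 486 and 1125 bp of H3K4me3.

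**Figure D5:**
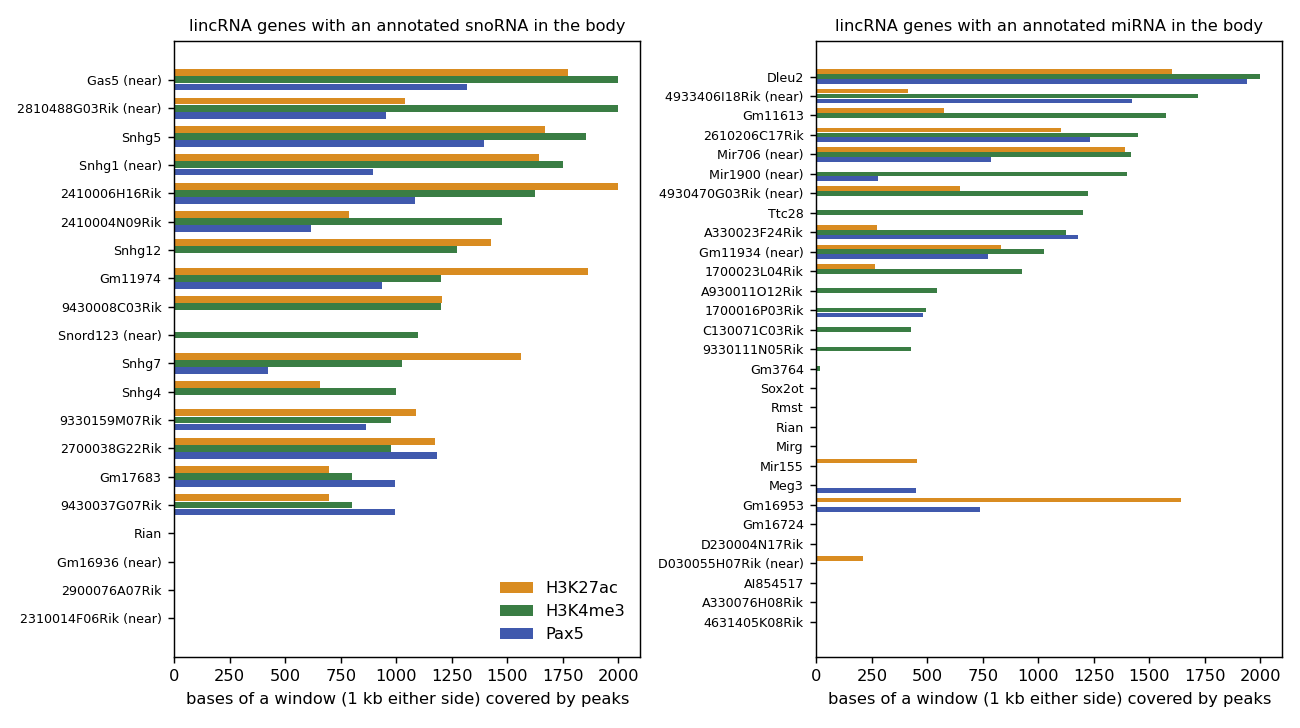
Bars give the bases of a window (1 kb to either side of a start) that peaks cover (x, in bp; the fullest window where a gene has several starts) at lincRNA genes with a snoRNA (left) or a miRNA (right) in the body, sorted by H3K4me3, 1 library per list. Near members are marked in the label, Gas5, 2810488G03Rik and Dleu2 have windows full of H3K4me3, and Snord123 (1100 bp), Ttc28 (1200 bp), A930011O12Rik (543 bp), C130071C03Rik (425 bp), 9330111N05Rik (425 bp) and Gm3764 (14 bp) have H3K4me3 alone.

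H3K4me3 without H3K27ac had other examples, which were chosen after their values were seen. 9130213A22Rik, whose CpG-rich run is shown above, had H3K4me3 over its whole window and a Pax5 peak of score 492, and it lies 2185 bp from a start of Hes7, a gene of the segmentation clock, just outside the limit of 2 kb. Hes7 itself held H3K4me3 alone. Gm12676, 15.3 kb from Nfia, had 1225 bp and neither other list. 9630013D21Rik, 7.52 kb from the cell cycle inhibitor gene Cdkn2c, had 1525 bp.

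H3K27ac without H3K4me3 at away members included some high scores, again chosen after the values were seen. Gm17306 (chr10:80144583-80149921), 5.54 kb from Mknk2, had an H3K27ac score of 94.9 over 1875 bp of the window and no Pax5. Gm10390 (chr5:120571112-120589272) had 70.8 over 1887 bp and a Pax5 peak of score 183. Gm17410 (chr16:10828020-10833600) was covered over its whole window with a score of 24.0 and held a Pax5 peak of score 363. Of the 56 members of this kind, 11 held Pax5. The median score of the kind was 9.03, so these were its upper end. Of the 9 away members with Pax5 alone, A930038B10Rik had the highest score, 720, in a peak of which 390 bp fell in the window, and the lowest was 90.4 at D430018E03Rik.

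The number of starts and the annotation level went with the marks at away members. Those with 1 start held H3K27ac in 27%, H3K4me3 in 20.6% and Pax5 in 13.7% of 452 cases, and those with 2 or more in 45.1%, 48.4% and 31.1% of 122. A gene with more starts has more windows. Away members annotated by hand (level 2) held the lists in 37.2%, 37.2% and 22.1% of 172 cases, and those annotated by computer (level 3) in 28.1%, 21.9% and 15.4% of 402. Near members differed little by level, with 63.8%, 73.8% and 51.2% of 320 and 63.3%, 75.1% and 51.2% of 338.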

How the data were processed

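The peak lists of 3 ChIP-seq libraries from pre-B cells (H3K27ac, H3K4me3 and Pax5, 1 library each) were analysed. The submitters' processing notes name Bowtie 0.12.9, MACS 1.4.2 and mm9. The paper's methods name another Bowtie version, with duplicate reads taken out before alignment and as many as 3 best positions kept per read. Whether these steps were used for the lists, and the peak settings of the lists, are not given in the sources used here. The deposited H3K27ac and Pax5 lists hold a score per peak by the authors' peak caller, and the deposited H3K4me3 list holds bins of 25 bp and other values than peaks with a score. How the bins were chosen is not given in the sources used here. Reads of the 3 input samples were not used. Depth is unknown, so no counting interval is given.

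Touching bins were joined, and lists were overlapped with windows of 1000 bp to either side of every transcript start in GENCODE M1 (NCBIM37, the assembly mm9) with Python 3.11.15, numpy 2.4.6 and matplotlib 3.10.9. A gene with several starts took its highest score and its fullest window. Overlaps were checked on simulated intervals, with 0 wrong answers in 6202 windows. All values are counts, shares and medians, without tests. The members and lists were chosen with earlier results of these data known. Named genes were 46 known symbols, the 8 away and 5 near members highest by each measure, and members with a list whose nearest coding start is in a list of 50 B cell genes; other names are said to be chosen after their values were seen. The alternatives were other windows, limits, starts, overlaps, scores, levels and overlap with coding genes. Some genes that this rule names are not reported here.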

Additional observations from a re-analysis of the deposited data

How the results depend on the processing

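Of 94 alternatives to the 10 counts of near and away members, 78 stayed within 1.5 times the reported count. The near share was above the away share in 27 of 27 comparisons, which include those as reported. These comparisons reuse the same genes and peaks and are not separate evidence. The limit was set on counts and not on shares, so it does not measure how steady the shares are. Near H3K27ac at level 2 passed it with a share of 63.8% beside 63.5%. Away H3K4me3 without coding overlap stayed within it with a share of 37.6% beside 26.5%. The alternatives were windows of 500 bp and 2 kb, the most 5′ start only, midpoints of peaks in the window, limits of 1 kb and 5 kb for near, at least 250 bp of H3K4me3, and those below, and away members without the 26 that lie within 2 kb of a non-coding transcript start of a coding gene, an alternative chosen after seeing the data. The counts that moved by more did so where an alternative keeps fewer genes or peaks by its construction. Some away shares changed as well. At level 2 they were 37.2% for H3K27ac, 37.2% for H3K4me3 and 22.1% for Pax5, beside 30.8%, 26.5% and 17.4% as reported. With genes of annotation level 2 only (level 1 holds 0 members), away counts were 64 for H3K27ac, 64 for H3K4me3, 38 for Pax5, 27 for all 3 lists and 89 for none, of 172, and near counts were 204, 236, 164, 146 and 77, of 320. Without away members that overlap a coding gene body, 104 held H3K27ac, 106 held H3K4me3, 64 held Pax5, 50 held all 3 lists and 153 held none, of 282. With only the peaks above each list's median score, Pax5 was found at 58 away and 222 near members, and all 3 lists at 42 away members. Over all alternatives the away shares ran from 24.0% to 37.2% for H3K27ac, from 24.6% to 37.6% for H3K4me3 and from 10.1% to 22.7% for Pax5, and the near shares from 59.8% to 65.6%, from 69.3% to 77.4% and from 33.7% to 54.1%. With 1 library per list, the error between libraries is unknown, as is the depth.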
